A study of Mus musculus with 2 samples.

Results

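The chemokines described here were 8 genes chosen by name because their proteins draw lymphocytes and dendritic cells through tissue. They were Cxcl9, Cxcl10, Cxcl11, Cxcl12, Cxcl13, Cxcl16, Ccl19 and Ccl21a. All 8 of 8 were found by symbol among the 22620 genes of the count files. Their levels were read as unique molecular identifiers (UMIs), each of which stands for 1 captured RNA molecule, in endothelial, stromal, myeloid and cancer cells of 2 single-cell libraries.

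1 library was made from primary tumours (PT) and 1 from paired lymph nodes (LN). The tissue of each came from 6 C57BL/6J mice that carried EO771-HEVM3, and the study's methods describe the hosts as female. EO771 is a mouse mammary cancer line of the C57BL/6 background. EO771-HEVM3 descends from it through repeated rounds of passage in mice, in which cells that had reached the lung by way of high endothelial venules (HEVs) were retained. Both libraries therefore came from tumour-bearing mice given the same selected line, and no library of a tumour-free node or of parental EO771 was analysed here. Tumours were digested with collagenases I and III and hyaluronidase, whereas nodes were digested with collagenase P, dispase II and DNase. The study's methods also mention blood endothelial cells of metastatic nodes that were sorted in parallel. The label of the LN library names no sort, and the library held 4720 B and 3660 T cells, so it is not that sorted preparation alone. Whether sorted cells were added to it is not settled.

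Chemokines are small secreted proteins that bind receptors on leukocytes and set the direction in which these cells move. CXCL9, CXCL10 and CXCL11 share the receptor CXCR3 of activated T and NK cells and are classical targets of interferon. CXCL12 acts on CXCR4, CXCL13 on CXCR5 of B cells, CXCL16 on CXCR6, and CCL19 and CCL21 on CCR7 of naive T cells and mature dendritic cells. High endothelial cells (HECs) line the HEVs, the vessels through which lymphocytes enter a node, and stromal cells of the node make CCL19, CCL21, CXCL12 and CXCL13.

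In GRCm38 with GENCODE vM21, Cxcl9 (chr5:92321347-92328079), Cxcl10 (chr5:92346638-92348889) and Cxcl11 (chr5:92359544-92365485) lie beside each other on the minus strand. Cxcl13 lies on the plus strand of the same chromosome (chr5:95956951-95961068). Cxcl12 lies at chr6:117168535-117181367 on the plus strand and Cxcl16 at chr11:70453983-70459984 on the minus strand. Ccl19 (chr4:42754525-42756577) and Ccl21a (chr4:42772860-42773993) are neighbours on the minus strand. The annotation classes Cxcl11 as a polymorphic pseudogene, a gene that is intact in some mouse strains and not in others, and the remaining 7 as protein coding.

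RefSeq promoter entries of GRCm38.p6 were at hand for 6 of the 8 genes. The 250 bases before the start site are printed for Cxcl9 and Cxcl10, since these neighbours share a receptor but had different levels in the cells below. Each reads 5′ to 3′ on the minus strand, Cxcl9 from chr5:92328080-92328329 and Cxcl10 from chr5:92348890-92349139. Capitals mark matches, on either strand, to a GAAA pair (GAAA, any 2 bases, GAAA), a core of interferon-stimulated response elements, or to the kappa-B consensus of NF-kB.
Cxcl9: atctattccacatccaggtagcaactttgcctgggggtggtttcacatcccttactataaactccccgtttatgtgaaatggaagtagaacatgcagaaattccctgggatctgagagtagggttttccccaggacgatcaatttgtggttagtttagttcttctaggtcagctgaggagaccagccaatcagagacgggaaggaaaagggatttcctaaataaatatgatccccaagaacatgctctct
Cxcl10: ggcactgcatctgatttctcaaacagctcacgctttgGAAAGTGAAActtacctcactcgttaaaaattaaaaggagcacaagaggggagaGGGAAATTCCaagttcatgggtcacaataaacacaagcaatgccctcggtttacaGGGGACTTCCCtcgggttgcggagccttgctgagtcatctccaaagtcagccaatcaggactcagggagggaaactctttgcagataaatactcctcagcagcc

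The Cxcl10 window held the GAAA pair from 213 to 204 bases before the start site. It held the kappa-B consensus from 159 to 150 bases before it and again from 104 to 95 and from 103 to 94, of which the last pair overlap. No match to either motif was found in the Cxcl9 window. The Ccl19 window held the GAAA pair from 208 to 199 bases before its RefSeq start site, and the windows of Cxcl12, Cxcl13 and Ccl21a held neither motif. The Ccl19 window (chr4:42756366-42756615) overlapped the GENCODE span of Ccl19, which ends at chr4:42756577, and its GAAA pair lay inside that span. Over 27018 windows of the same length, 3.04% held the GAAA pair and 7.13% held the kappa-B consensus. A match describes letters in a window and is not a bound site.

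The PT library held 12427 cell barcodes with 173317475 UMIs and a median of 9161 UMIs per cell, and the LN library held 11617 barcodes with 122207852 UMIs and a median of 2630. The filters left 8756 PT and 9689 LN cells. The 2 libraries shared 47 barcodes, 31 of them among the cells kept. Cell classes were named from marker genes after clustering without the 8 chemokines, so each name stands for cells with that type's markers ("-like"), a suffix written below only for HEC-like cells. PT cells comprised 6128 cancer cells, 732 macrophages, 316 monocytes, 308 neutrophils, 168 fibroblasts, 75 mural cells, 72 dendritic cells and 50 endothelial cells. LN cells comprised 614 cancer cells, 196 dendritic cells, 137 endothelial cells and 57 HEC-like cells, with 67 plasmacytoid dendritic cells, 37 neutrophils and 32 macrophages, beside 4720 B and 3660 T cells. Only 4 LN cells were fibroblasts, so LN stroma is all but missing from what follows.

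The 8 endothelial markers were present in each endothelial class, summing to 4546 CPM (a unit in which the summed UMIs of a gene are scaled to the same total in every class) in PT endothelial cells, 1434 in other LN endothelial cells and 993 in HEC-like cells. The HEC markers Glycam1, Chst4 and Fut7 summed to 5423 CPM in HEC-like cells and 851 in other LN endothelial cells, and stood at 0 in PT endothelial cells. The other LN endothelial cells therefore also held HEC marker RNA, and the border between the LN endothelial classes is one of degree. Of 6 lymphatic endothelial markers, 3 were at 0 in HEC-like cells, 2 in other LN endothelial cells and 3 in PT endothelial cells, with sums of 25.8, 63.1 and 112 CPM. In PT endothelial cells 6 of 8 cancer markers were present and summed to 908 CPM, mural markers summed to 891 CPM and fibroblast markers to 639 CPM. In PT fibroblasts 7 of 8 cancer markers were present and summed to 1425 CPM. The part of such cells or their RNA in the PT endothelial and fibroblast values was not tested.

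Each tissue had 1 library pooled from several mice, so no test between tissues or classes was possible, and every difference below describes these libraries. A level is the CPM of a gene after adding up the UMIs of all cells in a class, and its exact Poisson 95% interval covers counting error only. The share of cells with a UMI is given as counted and after each cell was thinned to 1000 UMIs, since depth differed between classes. T, B and NK cells, which are not known as main sources of these chemokines, served as a guide to free RNA. A lower level in a class may come from fewer expressing cells or from less RNA per cell, and both are given where they can be.

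The 8 genes fell into different cells. Cxcl10 was highest in HEC-like cells of the LN and next in PT monocytes, whereas Cxcl9 was highest in PT endothelial cells and fibroblasts. Cxcl12 was carried by LN endothelial cells and PT fibroblasts, and Cxcl16 by dendritic cells, macrophages and cancer cells. Cxcl11, Cxcl13, Ccl19 and Ccl21a were rare, with at most 358 UMIs per library over all barcodes.

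**Figure D1:**
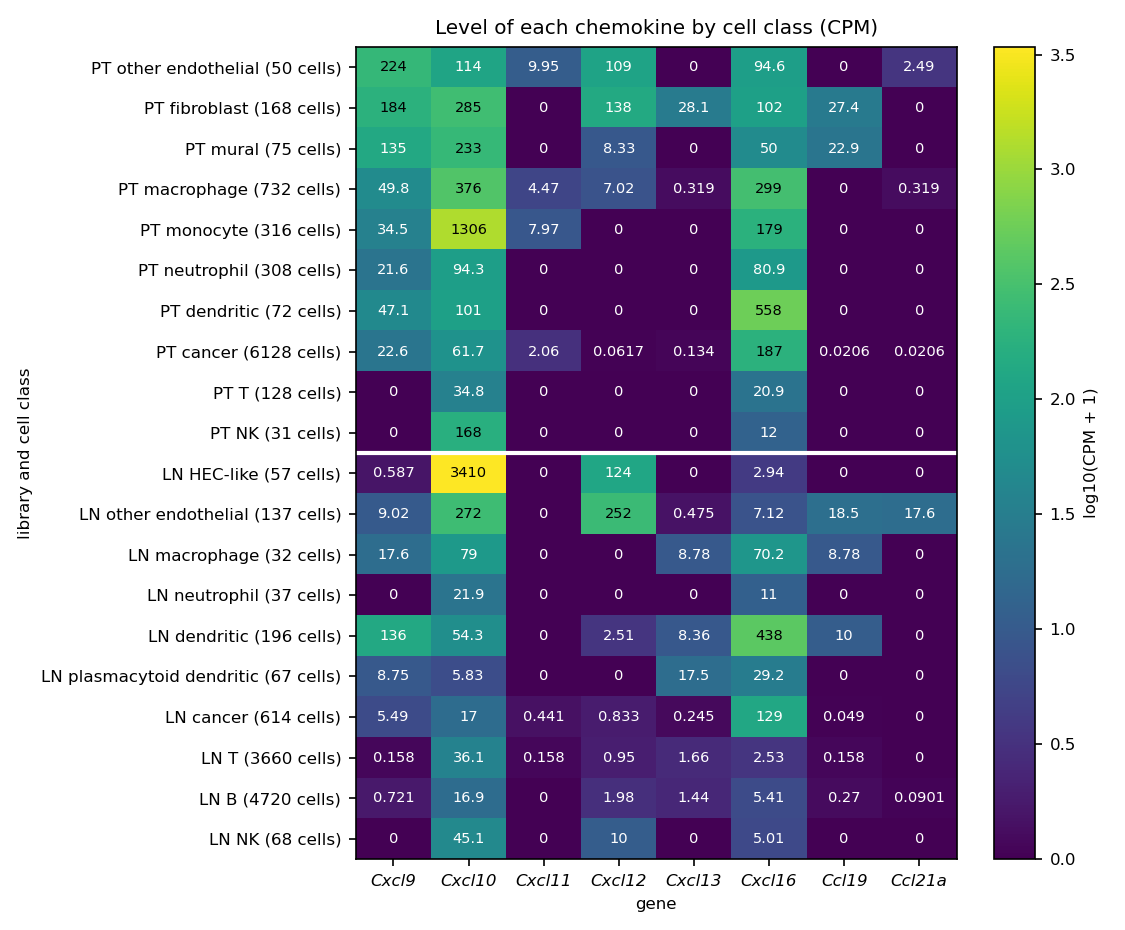
Level of each chemokine (columns, CPM of summed UMIs, log colour scale) in each cell class of at least 20 cells (rows) of the primary tumour and lymph node libraries. Brighter colours are higher levels. Cxcl10 is brightest in lymph node HEC-like cells (3409.7 CPM) and Cxcl16 in dendritic cells of both libraries (558 and 438 CPM).

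Cxcl10, a CXCR3 ligand that recruits activated T and NK cells, reached 3409.7 CPM (3322.6 to 3498.6) in LN HEC-like cells. The 57 HEC-like cells, of 9689 LN cells kept, held 77.6% of the 7485 Cxcl10 UMIs in those cells. This share was 50.7% with no limit on detected genes, 48.7% at a mitochondrial limit of 10% and 48.5% with doublets kept, where other LN endothelial cells held 42.9%, 36.2% and 36.2%. Of these cells, 48 had at least 1 UMI (84.2%, thinned 63.1%, 48.8 to 75.8), 39 had at least 10 and 18 had at least 100, with a median of 33. A single cell held 1145 of the 5808 UMIs (19.7%), and the 5 highest held 47.1%. Without that cell the level was 2833 CPM, still above that of every other class. The signal was therefore widespread in the class but very uneven, with 9 cells at 0.

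HEC-like cells fell into 2 subclusters, and both had high Cxcl10, with 4059 CPM (3928.4 to 4192.9) in the 32 cells led by Chst4 and Fut7 and 2683 CPM (2571.1 to 2798.9) in the 25 cells led by Olfr889, Ccl4 and Hmmr. Other LN endothelial cells had 272 CPM (250 to 295), with a UMI in 55 of 137 cells (40.1%, thinned 14.9%). LN T cells had 36.1 CPM (thinned 2.19%, median depth 2990.5 UMIs) and LN B cells 16.9 CPM (thinned 0.704%, median depth 1813), far below both endothelial classes. The ratio of HEC-like to other LN endothelial cells was 3.65 on the log2 scale (3.53 to 3.78), or 12.5-fold. It was 5.98-fold with no limit on detected genes, 4.31-fold at a mitochondrial limit of 10% and 4.35-fold with doublets kept. HEC-like cells were deeper, with a median of 29965 UMIs against 8787, which is why the thinned shares are set beside the counted ones.

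Cxcl12 went the other way across the same cells. Its level in HEC-like cells was 124 CPM (108 to 142) against 252 CPM (231 to 274) in other LN endothelial cells, a log2 ratio of -1.02 (-1.26 to -0.79). Over the 3114 genes compared between these classes the median log2 ratio was 0.00, 9.12% were at least 2-fold higher in HEC-like cells and 4.72% at least 2-fold lower. Of the 2 chemokines with enough UMIs to compare, Cxcl10 was among the higher and Cxcl12 among the lower. The Cxcl12 difference was under 2-fold at a mitochondrial limit of 10% (1.55-fold lower in HEC-like cells), with doublets kept (1.54-fold) and without subclusters led by a marker of another class (1.42-fold).

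**Figure D2:**
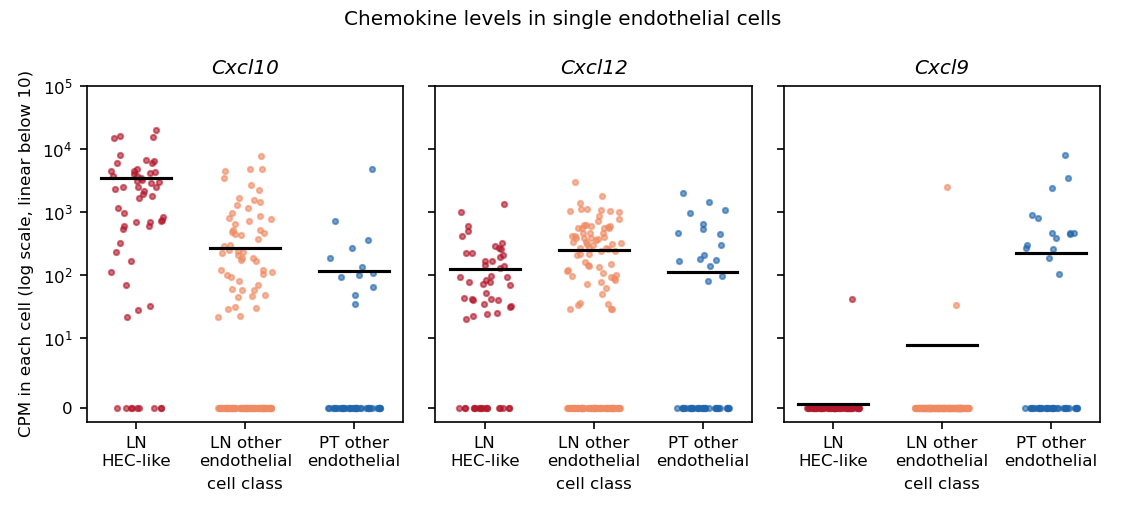
Cxcl10, Cxcl12 and Cxcl9 in single endothelial cells (points, CPM of the cell, axis logarithmic above its linear part near 0) of lymph node HEC-like, other lymph node and primary tumour endothelial cells, with a black line at the level of the summed UMIs. Cxcl10 lines stand at 3409.7, 272 and 114 CPM, whereas the Cxcl9 line is high only for primary tumour endothelial cells (224 CPM).

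Many of the LN molecules of these genes lay outside the cells kept. Cells with more than 6000 detected genes were left out. After all filters 36.7% of the 20394 LN Cxcl10 UMIs and 17.9% of the 4639 LN Cxcl12 UMIs remained. With no such limit, 67 HEC-like and 324 other LN endothelial cells were found, at 3219 and 538 CPM of Cxcl10 and 110.1 and 250.4 CPM of Cxcl12. The order of both genes held, while the Cxcl10 level of other LN endothelial cells was higher than with the limit. With doublets kept, the HEC-like class shrank to the 32 cells led by Chst4 and Fut7 (4059 CPM of Cxcl10), and the other LN endothelial cells, 163 then, had 933 CPM, close to the 938 CPM at a mitochondrial limit of 10%.

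PT endothelial cells had little Cxcl10, at 114 CPM (83.8 to 153), and 25 of their 46 UMIs were in 1 cell. The thinned share of these cells was 6.1%. It was above that of PT T cells (2.81%, median depth 2619.5) and of a pair of unnamed PT clusters of 232 and 219 cells led by Cd8a and natural killer genes (2.66% and 2.44%), and below that of the 31 PT NK cells (9.79%, 1.94 to 26.6, median depth 1736), of which 6 had a UMI. Whether the class level stands above free RNA is therefore not settled. Over all endothelial cells, LN (194 cells) exceeded PT (51 cells) by 3.86 on the log2 scale (3.46 to 4.33) for Cxcl10 and by 0.73 (0.31 to 1.20) for Cxcl12. Of 4645 genes compared, 23.4% were at least 2-fold higher in LN and 14.8% at least 2-fold lower, with a median of 0.20. Cxcl10 was among the higher genes, and Cxcl12 was not past 2-fold. Without the HEC-like cells the ratio of Cxcl10 was smaller, at 1.23 (0.81 to 1.71), and that of Cxcl12 larger, at 1.19 (0.76 to 1.68), so both were at least 2-fold higher in LN. Of the 2891 genes compared between these cells, 25.6% were at least 2-fold higher and 13.4% at least 2-fold lower, with a median of 0.29. The different digestion of the tissues cannot be told apart from tissue here.

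In the PT the non-malignant class with the highest Cxcl10 level was monocytes, at 1306 CPM (1226.1 to 1390.7), with a UMI in 146 of 316 cells (46.2%, thinned 37.9%). The ratio of HEC-like cells to PT monocytes was 1.38 on the log2 scale (1.29 to 1.48). Monocytes led by Slfn5, Helz2, Ifi209 and Gbp2, genes known as interferon-responsive, had 2819 CPM (2454.4 to 3221.6) and those led by Saa3 and Egr1 had 1919 CPM. The other monocyte subclusters of at least 20 PT cells had 744 to 843 CPM. Each of these subclusters thus had at least 744 CPM, with the highest level in the cells led by Slfn5, Helz2, Ifi209 and Gbp2. Over the class, 170 of 316 cells had no Cxcl10 UMI.

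PT macrophages had 376 CPM of Cxcl10 (355 to 398; 28.3% of cells, thinned 18.2%). Being more numerous, they held 1178 UMIs against 984 in monocytes. Macrophages led by Cmpk2, Rsad2 and Ifit1, which are also interferon-responsive, had 780 CPM (699 to 867), and those with Selenop and C1qa among their leading genes had 683 CPM (618 to 753). PT fibroblasts had 285 CPM (258 to 314), of which 122 of 405 UMIs were in 1 cell, and mural cells had 233 CPM (192 to 281). Fibroblasts, other LN endothelial cells and mural cells, which follow each other in this order, did not differ from one to the next beyond counting error, while macrophages exceeded fibroblasts by 0.40 on the log2 scale (0.24 to 0.57).

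Cxcl9, the CXCR3 ligand most tied to interferon gamma, had another distribution. It was highest in PT endothelial cells, at 224 CPM (180 to 275), with a UMI in 15 of 50 cells (30.0%, thinned 15.2%). PT fibroblasts had 184 CPM (162 to 208; 28.0%, thinned 11.3%), and the log2 ratio between these classes, 0.29 (-0.08 to 0.63), was within counting error. Mural cells had 135 CPM (105 to 173). In PT T and NK cells no Cxcl9 UMI was found. With no gene limit or with doublets kept, fibroblasts stood first (194 and 301 CPM), so the order of these classes is not settled.

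LN vessels lacked this signal. HEC-like cells had 1 Cxcl9 UMI in all (0.587 CPM), and other LN endothelial cells had 19, of which 18 were in 1 cell. With fewer than 100 UMIs on each side no fold was counted, and the levels over all endothelial cells were 5.25 CPM in LN and 223 CPM in PT. HEC-like cells thus held 5808 UMIs of Cxcl10 and 1 of Cxcl9, whereas PT endothelial cells held 46 and 90.

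In the LN the main carriers of Cxcl9 were dendritic cells, at 136 CPM (116 to 159). The signal lay in 1 subcluster of 40 cells led by Ppt1, Xcr1 and Clec9a, markers of the cross-presenting dendritic cells. These cells had 427 CPM (361 to 503) and held 89.6% of the LN dendritic Cxcl9 UMIs while making up 20.4% of the cells. A single cell had 52 of the 163 UMIs, and the 5 highest cells held 77.9%. PT dendritic cells had 47.1 CPM (25.1 to 80.5, 13 UMIs).

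Between dendritic cells of the libraries (196 LN and 72 PT) the log2 ratio of Cxcl9 was 1.48 (0.72 to 2.47) and that of Cxcl16 -0.35 (-0.61 to -0.08). Of 1579 genes compared, 6.27% were at least 2-fold higher in LN and 5.89% at least 2-fold lower, with a median of 0.02. Different subclusters made up the dendritic cells of each library: the Xcr1 and Clec9a subcluster held 40 LN and 2 PT cells, while the subclusters led by Helz2 and Oasl2 and by Mgl2 and Cxcl3 held 30 PT cells each and 0 and 4 LN cells. Ccl17 and Ccl22, ligands of CCR4, were lower in LN dendritic cells, with log2 ratios of -3.36 and -2.51.

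Cxcl11, the third CXCR3 ligand, was rare. In the PT 229 UMIs were counted in the cells kept, of which 200 were in 103 cancer cells (2.06 CPM, 1.78 to 2.36). PT monocytes had 7.97 CPM (6 UMIs) and macrophages 4.47 CPM (14 UMIs). The highest class by CPM, PT endothelial cells at 9.95, rested on 4 UMIs in 1 cell, which also had 18 UMIs of Cxcl9 and 25 of Cxcl10. The LN library held 11 Cxcl11 UMIs in all its cells kept.

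Cancer cells were the largest PT class, so they held 77.3% of the Cxcl9, 63.7% of the Cxcl10 and 87.3% of the Cxcl11 UMIs of the PT cells kept despite modest levels. PT cancer cells had 22.6 CPM of Cxcl9 (21.7 to 23.6), 61.7 CPM of Cxcl10 (60.2 to 63.3) and 187 CPM of Cxcl16 (184 to 190). The thinned share of Cxcl10 in them, 4.06%, lay between that of PT T cells (2.81%) and of PT NK cells (9.79%). The Cxcl10 level was above that of T cells (34.8 CPM, 19.5 to 57.4) and of the unnamed Cd8a clusters (22.0 CPM, 10.0 to 41.7, and 26.9 CPM, 13.4 to 48.1), but below that of the few NK cells (168 CPM, 91.8 to 281.8), so the share of free RNA in it is not settled. Cxcl9 had no UMI in T or NK cells, which allows up to 6.96 CPM in T cells but up to 36.0 CPM in NK cells, above the level of cancer cells. The unnamed Cd8a clusters had 4.88 CPM (0.591 to 17.6) and 2.44 CPM (0.0619 to 13.6) of it, below that level.

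The signal in PT cancer cells was uneven. A subcluster of 344 cells with Slurp1, Mt4, Gbp2 and Cd274 among its leading genes made up 5.61% of PT cancer cells and held 37.3% of their Cxcl9, 23.3% of their Cxcl10, 33.5% of their Cxcl11 and 7.49% of their Cxcl16 UMIs. Cd274 encodes PD-L1, an interferon-inducible inhibitory ligand. Its cells had 126 CPM of Cxcl9 (117 to 135; 32.0% of cells, thinned 8.97%) and 214 CPM of Cxcl10 (203 to 226; 33.1%, thinned 12.3%). The Lars2 subcluster of 194 shallow cells had 153 CPM of Cxcl9, but 83.3% of its 66 UMIs were in 1 cell. A further subcluster of 51 PT cells at 213 CPM of Cxcl10 was led by the myeloid genes Il1b, Fcer1g and Tyrobp, and the part of myeloid RNA in its value was not tested. In hypoxia-marked cancer cells, led by Txnip, Bnip3 and Ndrg1, the levels were 10.3 CPM of Cxcl9, 15.3 of Cxcl10 and 106 of Cxcl16.

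LN cancer cells had lower levels of these genes than PT cancer cells. Cxcl9 was at 5.49 CPM against 22.6, a log2 ratio of -2.04 (-2.33 to -1.77). Cxcl10 was at 17.0 CPM against 61.7, a log2 ratio of -1.86 (-2.02 to -1.70). Cxcl11 rested on 9 UMIs against 200 (-2.15, -3.37 to -1.27). Cxcl16 was at 129 CPM against 187, a log2 ratio of -0.53 (-0.59 to -0.47). With no gene limit the ratios of Cxcl9, Cxcl10 and Cxcl11 were larger, at -3.09, -2.93 and -3.39, and leaving out, for each gene, the 1 cancer cell of each library with the most UMIs of it they were -2.59, -2.31 and -3.97. The Cxcl10 level of LN cancer cells equalled that of LN B cells (16.9 CPM) and was below that of LN T cells (36.1). Of the 347 UMIs 98 were in 1 cell and 546 of the 614 cells had none, and the share of free RNA in this level is not settled.

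Of 10744 genes compared between LN and PT cancer cells, 9.34% were at least 2-fold lower in LN and 4.63% at least 2-fold higher, and the median log2 ratio was -0.18. Of the 8 chemokines 4 had enough UMIs, and 3 of these were at least 2-fold lower and 0 higher, with a median of -1.95. Of these 3, Cxcl11 met the limit of 100 UMIs only in PT (200 against 9 UMIs), where cancer cells held more UMIs in all (97190869 against 20412632). The 4 chemokines not compared had at most 17 UMIs in either library. Cxcl12 had 17 LN and 6 PT UMIs (0.833 against 0.0617 CPM) and Cxcl13 had 5 and 13 (0.245 against 0.134 CPM). Ccl19 had 1 and 2 UMIs and Ccl21a 0 and 2. On these few UMIs Cxcl12 was higher in LN beyond counting error, and Cxcl13 was not.

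The libraries drew their cancer cells from different subclusters. Of the LN cancer cells, 400 of 614 fell in a subcluster led by Nrn1, Tff2 and Ppbp that held 1 PT cell, and its levels were 0.486 CPM of Cxcl9, 4.16 of Cxcl10 and 131 of Cxcl16. A further 130 LN cells fell in a subcluster with the lymphocyte genes Igkc, Cd79a and Cd3d among its leading genes, at 4.37 CPM of Cxcl9 and 33.3 of Cxcl10. T-cell markers summed to 77.7 CPM in LN and 26.5 CPM in PT cancer cells, and B-cell markers to 40.0 and 3.35 CPM. Within the 1 subcluster that held over 20 cells of both libraries without lymphocyte genes in the lead, the Tff1, Stc1 and Areg cells, Cxcl9 was higher in LN (40.6 CPM, 29.3 to 54.9, 46 cells) than in PT (11.1 CPM, 9.58 to 12.8, 1051 cells). In the same cells Cxcl10 was lower in LN (36.8 against 61.2 CPM), so the lower class level of Cxcl9 did not hold within each subcluster.

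**Figure D3:**
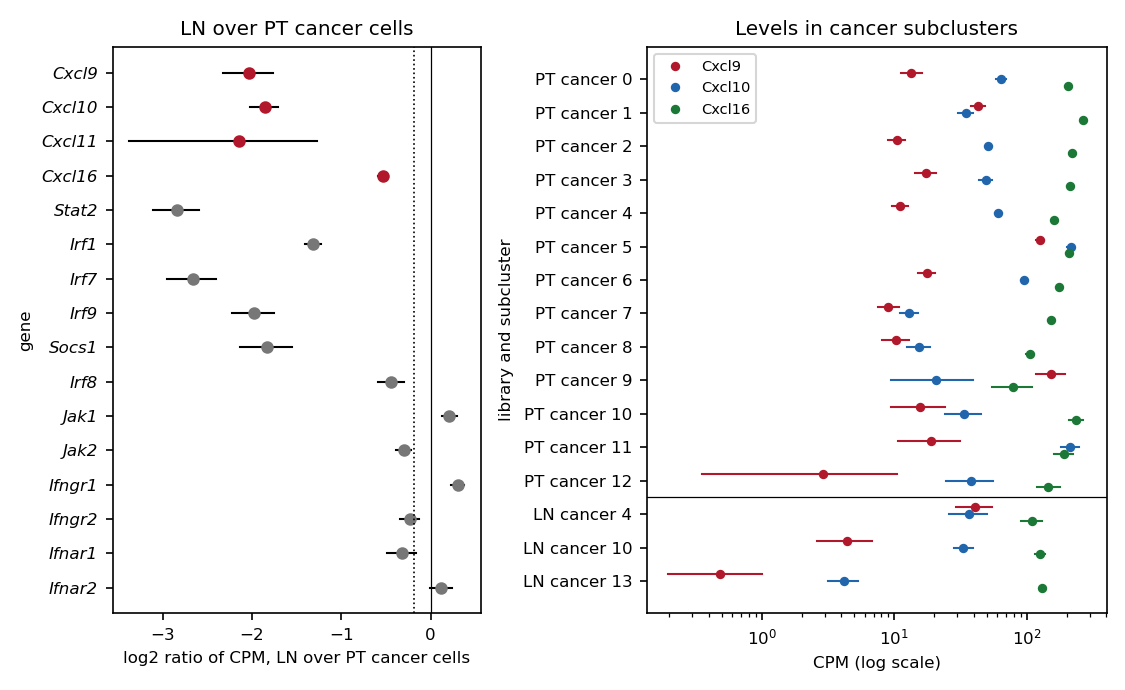
Left: log2 ratio of lymph node over primary tumour cancer cells for 4 chemokines and interferon signalling genes, with 95% counting intervals and a dotted line at the median of all genes (-0.18). Right: CPM (log axis) of Cxcl9, Cxcl10 and Cxcl16 by cancer subcluster and library, where Cxcl9 and Cxcl10 vary far more than Cxcl16 and are lowest in the main lymph node subcluster (LN cancer 13, led by Nrn1, Tff2 and Ppbp). PT cancer 5 is the subcluster with Slurp1 and Cd274, and cancer 4 is led by Tff1.

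Several interferon signalling genes were also lower in LN cancer cells. Of 14 listed, 12 had enough UMIs, 5 were at least 2-fold lower in LN cancer cells and 0 higher, against 9.34% and 4.63% of all genes, with a median of -0.38 against -0.18. Stat2 (-2.84), Irf7 (-2.67), Irf9 (-1.98), Socs1 (-1.83) and Irf1 (-1.31) were those that were lower, by log2 ratio. The receptor genes Ifngr1 (0.31), Ifngr2 (-0.23), Ifnar1 (-0.32) and Ifnar2 (0.12) stayed within 2-fold. Of 5 lymphotoxin and non-canonical NF-kB genes, 2 proteases and 5 other chemokines compared, 0 passed 2-fold in either direction.

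Cxcl12, the ligand of CXCR4, was carried mostly by vessels and fibroblasts. Other LN endothelial cells had 252 CPM, with a UMI in 70 of 137 cells (51.1%, thinned 16.1%), and no single cell held more than 29 of the 531 UMIs. PT fibroblasts had 138 CPM (120 to 159; 33.3%, thinned 16.0%), LN HEC-like cells 124 CPM (68.4%, thinned 11.4%) and PT endothelial cells 109 CPM (79.6 to 147; 32.0%, thinned 9.89%). Other LN endothelial cells exceeded PT fibroblasts by 0.86 on the log2 scale (0.63 to 1.11), whereas fibroblasts, HEC-like cells and PT endothelial cells, next to each other in the order, did not differ from one to the next beyond counting error. Every other class was at 10.0 CPM or below, with 0.0617 CPM in PT cancer cells (6 UMIs in 6128 cells).

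Of the LN endothelial Cxcl12 outside HEC-like cells, 68.5% came from 42 cells led by Bmp4 (315 CPM, 283 to 349), whose 10 leading genes also held Cd68, a macrophage marker. Without the subclusters led by a marker of another class, the level of other LN endothelial cells was 175.5 CPM and that of PT fibroblasts, then the highest class, 190.4 CPM. In PT fibroblasts the level was 549 CPM (422 to 703) in 26 cells led by Tnfaip6, Scara5 and Cd34, 321 CPM in cells led by Wnt6 and Axin2 and 261 CPM in those led by Thbs4 and Cilp. These 3 subclusters held 32.0%, 28.4% and 28.9% of the fibroblast Cxcl12 UMIs. The other subclusters of at least 20 PT fibroblasts were far lower, with 29.2 CPM (15.1 to 51.1) in 46 cells led by Flt1, Lmod1 and Sox11 and no UMI in 28 cells led by the cancer markers Cldn4 and Krt18, which allows up to 7.72 CPM. Of the 22 macrophage UMIs, 20 were in a subcluster that also carried Dcn, Krt8 and Krt18.

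Cxcl13, the B-cell follicle chemokine, was near the limit of detection. PT fibroblasts had 28.1 CPM (20.1 to 38.3), from 40 UMIs in 9 of 168 cells, of which 5 cells held 85.0%. The Tnfaip6 and Scara5 subcluster had 218 CPM. With no gene limit the fibroblast level was 4.26 CPM, so it depends on the filter and the clusters it gives. In the LN, 72 UMIs were spread over 21 cells, with 16 in 1 T cell, 11 in 1 of the 4 fibroblasts and 10 in 1 dendritic cell. In HEC-like cells none was counted, and a count of 0 allows a level of up to 1.76 CPM. Over all barcodes only 3 PT and 5 LN cells had at least 5 UMIs.

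Cxcl16, made as a membrane-bound chemokine that ADAM10 sheds, was the most evenly spread. PT dendritic cells had 558 CPM (473 to 653), with a UMI in 53 of 72 cells (73.6%, thinned 41.5%), and LN dendritic cells 438 CPM (401 to 477), with a UMI in 145 of 196 (74.0%, thinned 34.2%). PT macrophages had 299 CPM (281 to 319; 52.5%, thinned 24.4%). PT cancer cells and monocytes had 187 and 179 CPM, which did not differ beyond counting error, and LN cancer cells had 129 CPM (124 to 134). PT T cells had 20.9 CPM (thinned 2.71%), and LN T and B cells 2.53 and 5.41 CPM.

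Among the cells kept, which held 58.6% of the PT and 31.8% of the LN Cxcl16 UMIs, cancer cells had 91.9% and 79.9% of these UMIs. A UMI was found in 77.3% and 91.2% of cancer cells, at median depths of 14047.5 and 34984 UMIs. Thinned, the order turned, with 16.0% in PT and 12.4% in LN. Cancer subclusters ranged narrowly, from 268 CPM (256 to 281) in the cells led by Cyp1a1 and Iigp1 to 106 CPM (98.1 to 114) in the hypoxia-marked cells and 78.6 CPM (54.4 to 109.8) in a shallow subcluster led by Lars2 and ribosomal genes. Among LN dendritic cells the subclusters of at least 20 cells reached 874 CPM (619 to 1199.7; 38 UMIs). Vessels differed by tissue, with 94.6 CPM (66.9 to 130.0) in PT endothelial cells against 2.94 in HEC-like and 7.12 in other LN endothelial cells, all below 100 UMIs. Fibroblasts had 102 CPM (86.0 to 120).

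**Figure D4:**
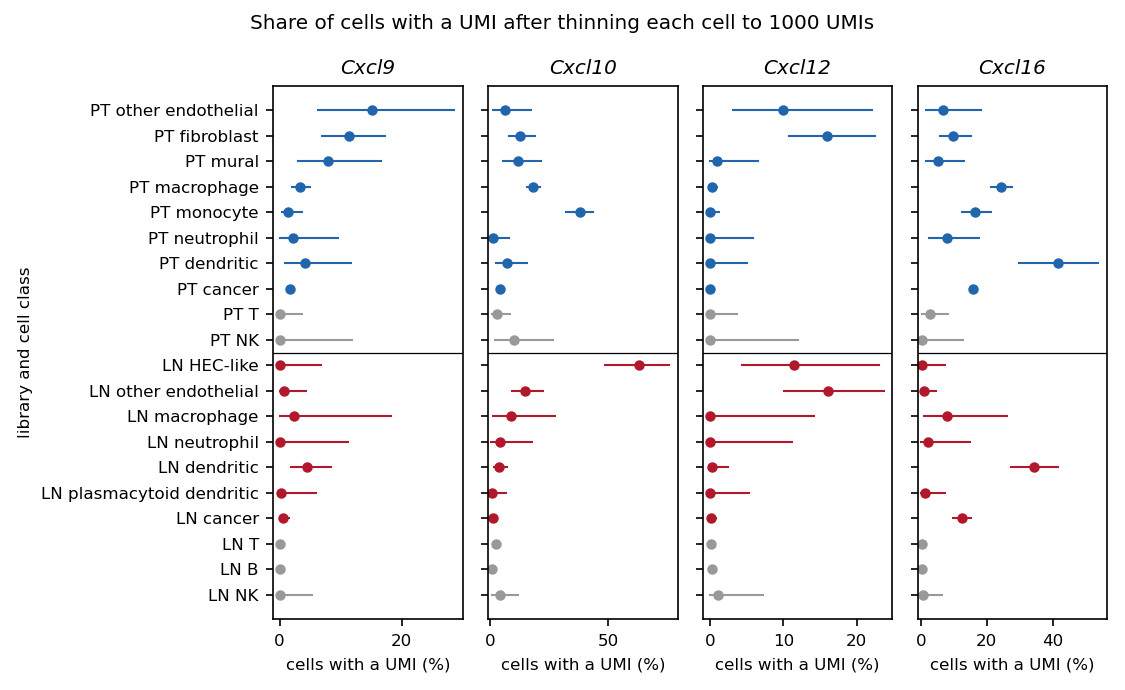
Share of cells (percent, each cell thinned to 1000 UMIs, bars are 95% Clopper-Pearson intervals) with a UMI of Cxcl9, Cxcl10, Cxcl12 and Cxcl16 by class and library, with T, B and NK cells in grey. Cxcl10 reaches 63.1% in lymph node HEC-like cells, and Cxcl16 reaches 41.5% and 34.2% in dendritic cells.

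The CCR7 ligands were scarce. Ccl19 was found in PT fibroblasts, with 39 UMIs in 15 of 168 cells (27.4 CPM, 19.5 to 37.5), and 17 of these were in 1 cell. LN dendritic cells had 12 UMIs in 9 cells (10.0 CPM, 5.18 to 17.5). Mural cells had 11 UMIs, of which 10 were in 1 cell. In fibroblasts with Cxcl12, 19.6% also had Ccl19 (11 of 56), against 3.57% of the rest, and the former were the shallower (median 4884 against 7263 UMIs).

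Other LN endothelial cells had 39 Ccl19 and 37 Ccl21a UMIs, and all of them were in the same cell. That cell had 9826 UMIs, with 24 of Dcn, 9 of Rgs5, 5 of Des, 4 of Emcn, 1 of Cdh5, 0 of Pecam1 and 0 of the lymphatic genes Prox1 and Lyve1. Its markers are more stromal and mural than endothelial, so the endothelial levels of both genes (18.5 and 17.6 CPM) rest on a cell whose label the data go against. Neither gene had a UMI in HEC-like cells, where the limit is again 1.76 CPM. In the PT 1 cell, removed as a doublet, had 105 Ccl21a UMIs of 9685, with 17 of Mmrn1, 13 of Lyve1, 6 of Flt4 and 1 of Prox1. These are lymphatic endothelial markers, and lymphatic endothelium is a known source of CCL21.

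Ccl21a counts are uncertain because of near-identical copies. Of 781 windows of 90 bases along its transcript, 54.8% were found unchanged in Gm21541, named Ccl21d in the files, 53.6% in Gm13304 and 17.8% each in Ccl21b and Gm10591. Ccl21b and Ccl21d were listed at 0 UMIs in every class. For Ccl19, 28.7% of windows were found in the pseudogene Ccl19-ps3 and 8.63% in Ccl19-ps1, both outside the gene list of the files.

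In most classes cells with a UMI of one CXCR3 ligand more often had the other. Cxcl10 was found in 45.0% of PT cancer cells with Cxcl9 (273 of 606) and in 18.0% of the rest, at median depths of 18901 and 13522 UMIs. The shares were 42.6% and 20.7% in PT fibroblasts, 56.2% and 16.9% in mural cells, 45.1% and 27.0% in macrophages, and 28.6% and 6.86% in LN dendritic cells. In each of these classes the cells with Cxcl9 were deeper. They were shallower in LN cancer cells (27825 against 35073 UMIs), where the shares were 52.2% and 9.48%, and in PT endothelial cells (6230 against 6850), where they were 33.3% and 20%. In PT neutrophils neither of the 2 cells with Cxcl9 had Cxcl10, against 2.94% of the rest. The 1 LN plasmacytoid dendritic cell and the 2 LN T cells with Cxcl9 also had no Cxcl10, against 3.03% and 5.11% of the rest. Any further part of depth in these shares was not tested. In other LN endothelial cells Cxcl12 was found in 70.9% of cells with Cxcl10 and 37.8% of the rest, at very unequal depths of 25229 and 5891.5 UMIs.

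The receptors lay mostly on lymphocytes. Here and below, the highest class is the highest among named classes. Cxcr6, the receptor of CXCL16, was highest in PT T cells (438 CPM, 378 to 505), Cxcr5 in LN B cells (67.4 CPM) and Cxcr4 in PT NK cells (408 CPM, 282 to 570). Cxcr6 was also among the leading genes of the unnamed PT clusters of 232 and 219 cells, which were not ranked. Ccr7 was highest in PT dendritic cells (2659 CPM), and the scavenging receptor Ackr3, which takes up CXCL11 and CXCL12, in PT endothelial cells (62.2 CPM). Cxcr3, highest in PT T cells with 8 UMIs, and Ackr1 and Ackr4, with at most 5 UMIs in any class, were too rare to describe. In LN cancer cells Ccr7 was at 13.2 CPM against 0.525 in PT (4.64 on the log2 scale, 4.21 to 5.11), where lymphocyte genes also led 1 subcluster, and Cxcr6 was lower (-2.12, -3.90 to -0.98, 5 against 113 UMIs).

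Genes upstream of the chemokines were spread over several classes. Ifng (361 CPM), Ifngr1 (1388 CPM) and Jak1 (772 CPM) were highest in LN NK cells, Irf8 (1379.5 CPM) in PT NK cells and Socs1 (88.3 CPM) in LN T cells. Ifngr2 (238 CPM), Irf1 (260.4 CPM) and Irf9 (66.7 CPM) were highest in PT mural cells, Jak2 (489 CPM) in PT dendritic cells, and Ifnar1 (306 CPM), Ifnar2 (402 CPM) and Stat2 (84.6 CPM) in LN plasmacytoid dendritic cells. Irf7, a factor that amplifies type I interferon responses, was highest in HEC-like cells (188 CPM, 168 to 210), which did not differ beyond counting error from other LN endothelial cells (168 CPM, log2 ratio 0.17, -0.06 to 0.39). In LN against PT endothelial cells Irf7 was the 1 of 5 interferon genes compared that was at least 2-fold higher (3.07), and 0 were lower, against 23.4% of all genes higher and 14.8% lower.

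Of the lymphotoxin pathway, which maintains HEVs, Ltb was highest in PT T cells (267 CPM), Ltbr in PT endothelial cells (82.1 CPM), Relb in LN dendritic cells (222 CPM), and Map3k14 (254 CPM) and Nfkb2 (217 CPM) in PT dendritic cells. Ltbr was lower in LN than PT endothelial cells (-1.15). Adam10 was highest in PT endothelial cells (214 CPM), also with a lower level in LN endothelial cells (-2.80), and Dpp4, which trims CXCR3 ligands, in LN dendritic cells (88.6 CPM).

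Among other lymphocyte-attracting chemokines, Ccl5 (11858.8 CPM) and Xcl1 (932 CPM) were highest in LN NK cells, Ccl22 (3322 CPM) and Ccl17 (1942 CPM) in PT dendritic cells, Cx3cl1 (68.8 CPM) in mural cells, Ccl20 (23.2 CPM) in fibroblasts and Ccl27a (13.7 CPM) in LN cancer cells. Ccl5 also marked LN vessels, at 1845 CPM in LN against 4.96 CPM (2 UMIs) in PT endothelial cells. Ccl5 was at 2499.8 CPM in HEC-like and 1316 CPM in other LN endothelial cells. T-cell markers summed to 27.0 and 72.6 CPM in them and NK-cell markers to 10.6 (1 of 5 markers present) and 0.949 CPM, and the part of lymphocyte RNA in the Ccl5 level was not tested.

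Over the 20 class and library groups of at least 20 cells, the 3 genes of 12342 most like each chemokine were listed by Pearson correlation of log2(CPM + 10). For Cxcl10 they were Ifih1 (r = 0.902), a sensor of double-stranded RNA, Mdm2 (0.867) and Ifi211 (0.855), an interferon-inducible gene. For Cxcl12 they were Dpysl3 (0.950), Hoxb7 (0.941) and Adm (0.936), for Cxcl16 Vwa5a (0.906), Shtn1 (0.900) and Sowahc (0.873), and for Cxcl9 Pdlim4 (0.868), Nav1 (0.865) and Papss2 (0.845). The lists of the rarer genes rest on few UMIs: Stab1 (0.869), Ednrb (0.848) and Cd36 (0.786) for Cxcl11, Vegfd (0.770), Apod (0.759) and Cryzl2 (0.750) for Cxcl13, Dact3 (0.832), Ghr (0.826) and Vps37d (0.817) for Ccl19, and Prss36 (0.880), Zfp985 (0.839) and Lyve1 (0.820) for Ccl21a. These values are descriptions across groups that share 2 libraries and differ in depth.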

How the data were processed

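The authors made 10x Genomics 3′ libraries from both tissues and deposited raw UMI counts per gene and cell barcode. The file headers name Cell Ranger 5.0.0, and the submitters' processing notes name Cell Ranger 2.1.1 with GRCm38. The reporting summary of the study names a later version than either. The study's methods state that genes found in fewer than 50 cells were left out. Ccl21a was listed all the same, with a UMI in 6 PT and 3 LN barcodes. How the gene list of the files was shortened is therefore not settled. Whole tables were read, and a UMI count is taken as 1 molecule, so no length correction was applied.

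Cells were dropped if they had 200 detected genes or fewer, more than 6000, or over 5% of UMIs from mitochondrial genes. Scrublet, run through scanpy 1.11.5 with an expected share of 6%, marked 391 PT cells (4.27%) as doublets but 0 LN cells. The caller had thus not worked on the LN, and its 616 highest-scoring cells (5.98%, past the 94th percentile) were taken out. Log-normalised counts (10000 to a cell) of 2000 variable genes from either library were used, excluding the 8 chemokines, the context genes and mitochondrial genes. Cell cycle scores were regressed out, the values were scaled and clipped, and 30 components were taken. Leiden clusters at resolution 1.0 over 15 neighbours were named from marker lists. A cluster took a name with at least 3 markers raised at least 4-fold, and 731 PT cells (8.35%) and 85 LN cells (0.877%) stayed unnamed. Clusters that also held raised markers of another class were split at resolution 0.5. Subclusters within a class were made at resolution 1.0. An endothelial subcluster was called HEC-like where Glycam1, Chst4 or Fut7 was among its 10 leading genes and all 3 were at least 2-fold over the endothelial subclusters led by none of them. Class names were rebuilt here and may differ from the study's.

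Levels, Poisson and Clopper-Pearson intervals and exact intervals for the split of 2 counts (0.5 added to each sum for a ratio) were computed with scipy 1.17.1. Only genes with at least 100 UMIs in either group were compared by ratio, and a count of 0 was taken to allow 3. The steps were tested on simulated data. A gene was described as at least 2-fold different without any test, since cells are not replicates. All 8 chemokines are named. Of the interferon list 1 gene is not reported here. The other genes of the context lists are named in their highest class if they have at least 20 UMIs there, and the 3 genes most like each chemokine are named. The chemokines, lists and rules were chosen with earlier results of these data known. Motifs were searched in RefSeq windows of GRCm38.p6.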

Additional observations from a re-analysis of the deposited data

Results flagged for a closer look

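Cells outside the classes described above also carried these chemokines. The values are given because each stood above the upper bound in the T, B and NK cells of its library, and the cells were in none of the classes compared. In LN cells with more than 6000 detected genes Cxcl10 was at 193 CPM, Cxcl12 at 56.8 CPM and Cxcl16 at 102 CPM. The Cxcl10 value came from 12814 UMIs in 964 cells, of which 2355 were in 1 cell. With no gene limit, the LN cells over it fell mostly into endothelial and cancer classes: HEC-like and other endothelial cells took 44.9% and 52.8% of their Cxcl10 and 6.17% and 90.5% of their Cxcl12 UMIs, and cancer cells took 90.4% of their Cxcl16 UMIs. In PT cells with more than 6000 detected genes Cxcl16 was at 211 CPM. In cells over 5% of mitochondrial UMIs it was at 204 CPM in PT and 96.1 CPM in LN, and in cells removed as doublets at 198 and 34.5 CPM. An unnamed PT cluster of 250 cells had 1064 CPM of Cxcl10 and 237 CPM of Cxcl16, close to the levels of PT monocytes, and an unnamed cluster of 30 PT cells led by Hspa1b and Hspa1a had 1124 CPM of Cxcl10 (71 UMIs). The causes of these levels were not tested.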

How the results depend on the processing

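Each level was computed again under 7 other settings and under 1 chosen after seeing the data, which left out subclusters led by a marker of another class. Of 63 recomputed levels 31 stayed within the counting interval and 32 moved. The class with the highest level stayed the same in 37 of 48 comparisons, and for Cxcl10 it was HEC-like in all 6 reclusterings or exclusions. The causes of the moves were not tested, apart from single cells where one is left out. Cxcl10 in HEC-like cells (3409.7 CPM) was 3219 with no gene limit, 4047 at a mitochondrial limit of 10%, 4059 with doublets kept, 3724 with each library clustered on its own, 3624 at Leiden resolution 2.0, 3055 as a mean of single-cell CPM and 2833 without the 1 cell with most UMIs. Cxcl9 in PT endothelial cells (224) was 157 with no gene limit, 306 without mixed subclusters and 380.0 as a single-cell mean. Cxcl12 in other LN endothelial cells (252) was 210.4 at 10%, 209 with doublets kept, 175.5 without mixed subclusters and 223 as a single-cell mean. Cxcl13 in PT fibroblasts (28.1) was 4.26 with no gene limit, 42.9 at 10%, 38.7 without mixed subclusters, 54.4 as a single-cell mean and 19.7 without its top cell. Ccl19 in the same cells (27.4) was 40.7 at 10%, 37.7 without mixed subclusters, 45.4 as a single-cell mean and 15.6 without its top cell. Cxcl16 in PT dendritic cells (558) was 419 with doublets kept and had no value at 10%, where that class was not found. Cxcl11 in PT endothelial cells was 0 without its top cell. Ccl21a in other LN endothelial cells (17.6) was 2.29 with no gene limit, 27.5 as a single-cell mean and 0 at 10%, with doublets kept, with libraries clustered apart, without mixed subclusters or without its top cell. With doublets kept, Ccl21a was at 248 CPM in PT endothelial cells, from the cell with 105 UMIs. The median log2 ratio of the 4 chemokines in LN over PT cancer cells (-1.95) was -3.01 with no gene limit and -2.45 without each gene's top cell in each library, and 6 of its 8 alternatives stayed within the interval. Of 32 single ratios 9 moved and 0 changed sign. No paired analysis was possible because each tissue had 1 library and the 2 shared only 1 replicate number.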

Other observations

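The unnamed PT cluster with 1064 CPM of Cxcl10 was led by Spic, Ace and Treml4, genes known from patrolling monocytes and from spleen macrophages, and 46.4% of its 250 cells had a Cxcl10 UMI (36.9% after thinning). Its Cxcl9 level was 48.3 CPM (23 UMIs) and its Cxcl12 level 0 UMIs, which allows up to 6.30 CPM. Its cluster took no name by the marker rule, so it is given by its leading genes alone.

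In the LN, 1 of the 4 cells with fibroblast markers had 29 UMIs of Cxcl12, 11 of Cxcl13 and 9 of Ccl19 among 3827, with 65 of Dcn and 69 of Col3a1. It was the only LN cell kept with at least 5 UMIs of both Cxcl13 and Ccl19. A single cell supports no statement on LN stroma.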
